A study of Mus musculus with 12 samples.

Results

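The transcripts described are those of the EGF receptor family in mammary tumours with and without the kinase Hunk: the receptors Egfr, Erbb2 and Erbb3, the ligands Areg, Hbegf, Btc, Tgfa and Ereg, and the receptor inhibitor Errfi1. The members were found by the gene symbol that the array platform's annotation gives each probe set. Of the 9 named genes, 8 had at least 1 probe set, and these held 18 of the 22690 probe sets of the array. The annotation used lists no probe set for Areg, which is not analysed here. Egfr had 5 probe sets, Tgfa 3, Erbb3, Hbegf, Btc and Errfi1 2 each, and Erbb2 and Ereg 1 each.

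The samples were 12 Affymetrix arrays of mammary tumours from female mice labelled as strain FVB. In 6 the tumour genotype was MMTV-c-myc with Hunk KO, and in 6 it was MMTV-c-myc with Hunk WT. All 12 tumours thus carried the c-myc transgene, under the control of the MMTV promoter, which is active mainly in mammary epithelium. The Hunk KO allele was made in E14 embryonic stem cells, which come from another mouse strain, by putting a pGKneo cassette in place of the putative promoter and exon 1, and the mice were bred from Hunk heterozygous parents and mated before tumours arose. Ages are not given in the labels, which also do not say that each array came from a separate mouse, so p-values measure only how far these arrays vary, which may be partly technical. Values are log2 signals made by the authors with GCRMA, and the number of arrays limits their precision.

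The EGF receptor family passes signals from secreted or membrane-bound growth factors into the cell. Ligands such as amphiregulin (Areg), HB-EGF (Hbegf), betacellulin (Btc), TGF-alpha (Tgfa) and epiregulin (Ereg) are made as membrane precursors, are released by metalloproteases, and bind receptors that pair with each other and switch on the Ras-ERK and PI3K pathways. Erbb2 binds no known ligand and Erbb3 has a weak kinase, so that these receptors act mainly as partners. Errfi1, also called Mig6, binds the kinase domain of active receptors and shuts them off, and its own transcription is raised by receptor signalling, which makes it a feedback inhibitor. In the mammary gland this family is known for its part in duct growth and in tumours.

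Each array's background was taken as the top signal among its Bacillus controls, 3.71 ± 0.15 (SD, n = 6) in Hunk KO tumours and 3.60 ± 0.10 (SD, n = 6) in Hunk WT tumours on the log2 scale. Hunk itself was above this background in 0 of 6 Hunk KO and 4 of 6 Hunk WT tumours. Its values were 2.60 to 3.06 in Hunk KO and 2.99 to 5.53 in Hunk WT, so the groups overlapped. The log2 change of Hunk was -1.26 and did not pass (limma adjusted p = 0.209 over all probe sets). Where the Hunk probe set lies relative to the deletion was not examined. The luminal keratin Krt18 averaged 12.02 ± 0.63 (SD, n = 6) in Hunk KO and 12.19 ± 0.67 (SD, n = 6) in Hunk WT tumours, and all 10 luminal epithelial markers were above background on at least 11 of 12 arrays. The hormone-sensing luminal markers measured, Esr1, Pgr, Foxa1, Cited1, Wnt4 and Tnfsf11, were at or below background on all 12 arrays. Hunk KO tumours 4 and 5 were the most alike pair within a genotype (SD of their difference over the tested probe sets 0.338, against 0.531 for the next pair). Among the other marker lists, 1 of 8 tested alveolar genes rose in Hunk KO (Ltf, lactoferrin). Of these 8, 7 had a positive change and 1 a negative one, with a median log2 change of 2.16. Elf5 had a change of 2.12 (limma adjusted p = 0.0548). The casein Csn2 was at 13.67 to 14.22 in Hunk KO tumours 2, 3 and 6, and at 2.24 to 2.30 in 1, 4 and 5. In Hunk WT it was at 12.85 and 12.48 in tumours 2 and 3, and at 2.21 to 2.25 in the others. In either direction 0 of 5 basal, 0 of 5 fibroblast, 0 of 9 macrophage, 0 of 1 endothelial, 0 of 2 adipocyte, 0 of 2 skin and 0 of 1 muscle genes passed. The highest means in these lists were those of Csn3, Acta2, Col3a1, Lyz2, Emcn, Fabp4, Krt6a and Acta1. Of 11313 probe sets whose mean exceeded the median probe-set mean, 278 (2.46%) differed between the genotypes, 133 higher and 145 lower in Hunk KO (limma, Benjamini-Hochberg adjusted p under 0.05 over all 11313).

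Errfi1 was the only member past the threshold. Both of its probe sets were lower in every Hunk KO tumour than in any Hunk WT tumour, by about 3-fold. Of the 18 member probe sets 9 passed the filter, and these 2 were the only ones past the threshold, both lower, where 1.28% of all tested probe sets were called lower. They read 1 gene and are not separate evidence. No member probe set was called higher, where the share over all tested probe sets was 1.18%.

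**Figure D1:**
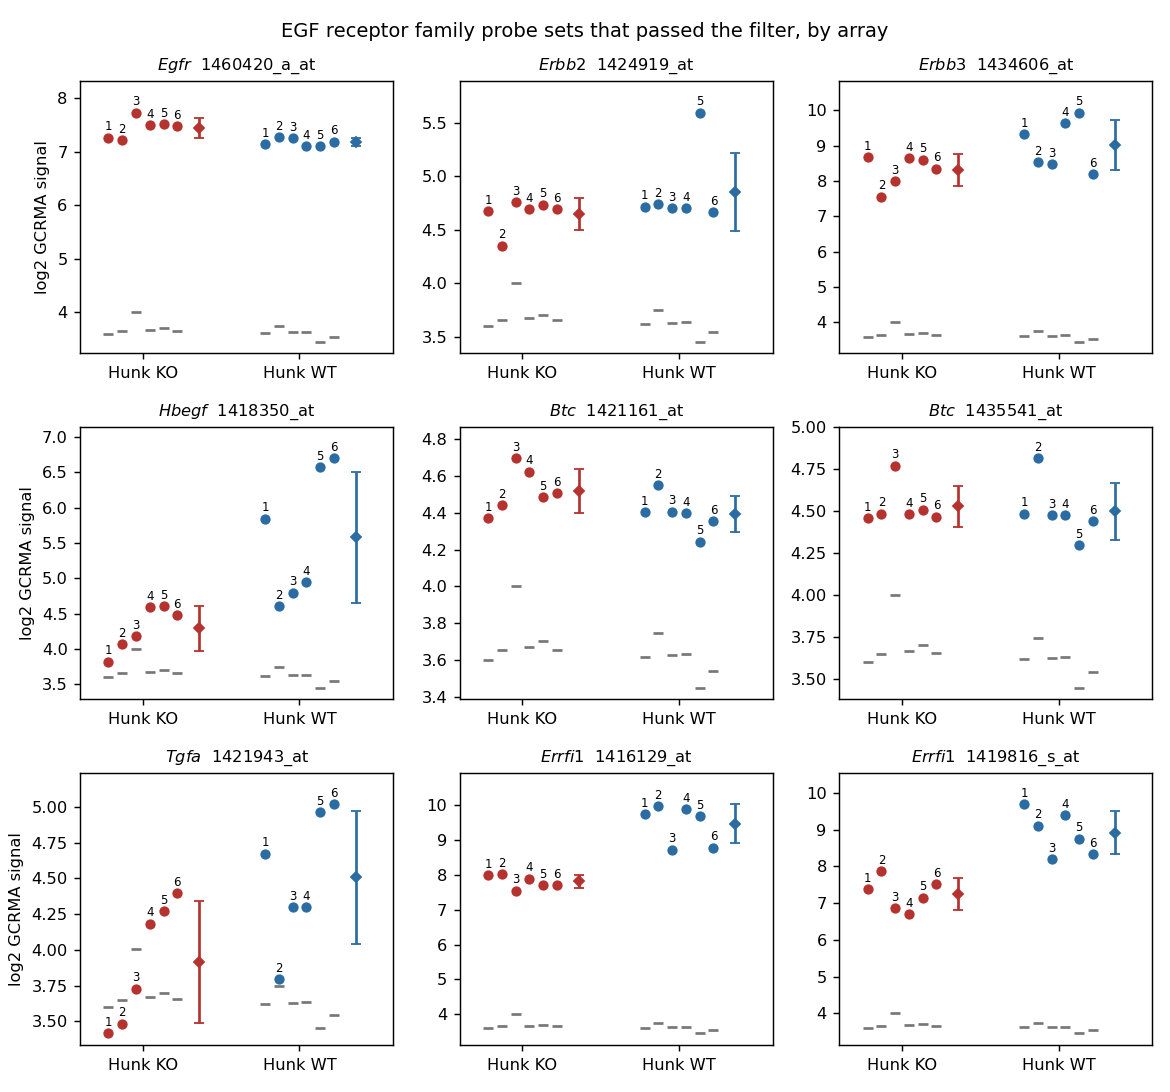
Log2 GCRMA signal (vertical axis, a separate range in each panel) of the 9 member probe sets that passed the filter, with 1 numbered point per tumour, Hunk KO in red and Hunk WT in blue. Diamonds with bars are the group mean and SD (n = 6 each), and grey dashes are each array's background. Errfi1 and Hbegf 1418350_at show no overlap between the genotypes, and the other panels do.

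The first Errfi1 probe set, 1416129_at, lay between 7.55 and 8.03 with a median of 7.81 in Hunk KO tumours, and between 8.73 and 9.97 with a median of 9.72 in Hunk WT tumours. The Hunk KO tumours sat in a narrow band, with an SD of 0.19 (n = 6) against 0.56 (n = 6) in Hunk WT. Among Hunk WT tumours, numbers 3 and 6 were low, at 8.73 and 8.79, and the other 4 lay at 9.69 or above. The log2 change was -1.65 (SE 0.23, 95% interval -2.15 to -1.15, limma adjusted p = 0.0031), a level 3.14-fold lower in Hunk KO. It ranked 34 of the 11313 probe sets by p and 111 by the size of the fall.

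The second Errfi1 probe set, 1419816_s_at, carries a suffix that marks probe sets able to match more than 1 transcript. It lay between 6.70 and 7.86 with a median of 7.27 in Hunk KO, and between 8.20 and 9.69 with a median of 8.94 in Hunk WT. Tumours 3 and 6 were again the lowest of the Hunk WT group. The log2 change was -1.67 (SE 0.28, 95% interval -2.28 to -1.06, limma adjusted p = 0.00992), 3.18-fold lower in Hunk KO. The deviations of the 2 Errfi1 probe sets from their group means had r = 0.74 over the 12 arrays, or 0.53 without the 2 arrays farthest from the median.

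Each Errfi1 call stood in all 12 fits that left out 1 tumour, with log2 changes from -1.80 to -1.55 and from -1.81 to -1.51. The luminal markers moved with this result. Their mean was 9.73 to 10.37 in Hunk KO and 8.78 to 9.44 in Hunk WT, with no overlap; of the 10 markers 8 had a positive change and 2, the keratin Krt19 and the glycoprotein Cd24a, passed. The mean rested mostly on Krt19, with a log2 change of 4.08, and the mucin Muc1, with 2.35 (limma adjusted p = 0.115), while the median over the 10 was 0.45 and Krt18 and Epcam had changes of -0.17 and -0.19. With that mean as a covariate the Errfi1 change was -0.79 (limma adjusted p = 0.699) and -0.88 (limma adjusted p = 0.755), and only 2 probe sets of the whole array passed, so that this marker mean and the genotype cannot be told apart in these samples. With the 3' minus 5' difference of beta-actin, a sign of RNA quality that was 1.51 ± 0.15 (SD, n = 6) in Hunk KO and 1.29 ± 0.05 (SD, n = 6) in Hunk WT, as a covariate, the changes were -1.52 (limma adjusted p = 0.0681) and -1.48 (limma adjusted p = 0.114). These are tumour pieces, in which fewer cells of a type and less RNA per cell cannot be told apart.

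The RefSeq promoter table (build GRCm38.p6) held 2 start sites for Errfi1, and they are shown because Errfi1 was the only member past the threshold. Each window runs from 250 bases before to 50 after the start, on the plus strand, and capitals mark a match to the cyclic AMP response element TGACGTCA.
Errfi1, chr4:150853546-150853845: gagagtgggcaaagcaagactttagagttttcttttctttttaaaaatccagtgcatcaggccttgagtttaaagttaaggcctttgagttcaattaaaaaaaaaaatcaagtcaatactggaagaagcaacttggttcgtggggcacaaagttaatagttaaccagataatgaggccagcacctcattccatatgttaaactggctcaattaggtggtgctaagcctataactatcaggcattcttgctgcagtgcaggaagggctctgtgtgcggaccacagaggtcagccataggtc
Errfi1, chr4:150854820-150855119: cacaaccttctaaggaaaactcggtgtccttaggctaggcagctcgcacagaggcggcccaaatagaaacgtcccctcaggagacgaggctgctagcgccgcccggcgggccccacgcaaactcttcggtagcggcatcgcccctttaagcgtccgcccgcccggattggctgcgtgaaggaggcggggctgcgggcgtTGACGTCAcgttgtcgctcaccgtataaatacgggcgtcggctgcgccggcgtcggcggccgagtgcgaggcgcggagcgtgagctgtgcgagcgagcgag

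The search covered both strands. The second Errfi1 window held 1 match to TGACGTCA and the first held 0, where 1.79% of the 32817 promoter windows of the table hold it. Of the 6 members with an entry in that table, Areg was the only other one whose window held TGACGTCA, and its transcript was not measured here. Neither Errfi1 window held the AP-1 motif TGANTCA (7.81% of windows), the ETS motif CCGGAAGT (3.89%), the E-box CACGTG (7.15%), the STAT motif TTCNNNGAA (8.29%) or the CArG box (1.63%). A match describes these letters only. Which start site the Errfi1 transcripts of these tumours used was not measured.

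Among the ligands, Hbegf and Tgfa had lower means in Hunk KO but did not pass the test, Btc was nearly level, and Ereg was at or below background on every array. Hbegf, which makes a heparin-binding ligand of Egfr and Erbb4, was measured by 1418350_at. It lay between 3.82 and 4.60 with a median of 4.33 in Hunk KO tumours, and between 4.61 and 6.70 with a median of 5.40 in Hunk WT tumours. The groups did not overlap, though Hunk KO tumour 5 at 4.60 and Hunk WT tumour 2 at 4.61 almost met. Hunk WT tumours 1, 5 and 6 were high, at 5.85 to 6.70, and Hunk WT tumours 2, 3 and 4 lay at 4.61 to 4.95.

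The log2 change of Hbegf was -1.29 (SE 0.36, 95% interval -2.08 to -0.50), with a limma adjusted p of 0.0793. With the mean of the fibroblast markers as a covariate it was -1.51 (limma adjusted p = 0.0342), the one alternative under which Hbegf passed at that threshold. With the luminal marker mean as a covariate the Hbegf change was -0.75 (limma adjusted p = 0.89), and with the beta-actin covariate it was -1.52 (limma adjusted p = 0.208). Hbegf and the 2 Errfi1 probe sets were the 3 of 9 tested member probe sets whose groups did not overlap with Hunk KO lower, where the share over all tested probe sets was 1.38%. With Hunk KO higher the count was 0 of 9, beside 1.49%, and in either direction it was 3 of 9, beside 2.87%. The other Hbegf probe set, 1418349_at, was below background on all 12 arrays.

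Tgfa, another Egfr ligand, was measured by 1421943_at. It lay between 3.42 and 4.40 with a median of 3.96 in Hunk KO, and between 3.80 and 5.02 with a median of 4.49 in Hunk WT, so the groups overlapped. It was above background in 3 of 6 Hunk KO and 6 of 6 Hunk WT tumours, and the size of its difference therefore rests in part on the background. The log2 change was -0.59 (SE 0.24, 95% interval -1.10 to -0.08, limma adjusted p = 0.196), and -0.30 (limma adjusted p = 0.956) with the luminal marker mean as a covariate. The other Tgfa probe sets, 1421942_s_at and 1450421_at, were above background on 0 and 1 of 12 arrays.

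Hbegf and Tgfa varied together from tumour to tumour. In Hunk KO, tumours 1, 2 and 3 were low and 4, 5 and 6 high for each ligand, and in Hunk WT tumour 2 was the lowest and tumours 5 and 6 the highest. Their values had r = 0.94 within the 6 Hunk KO tumours and r = 0.95 within the 6 Hunk WT tumours. Over the 12 deviations from the group means r was 0.87 and rho 0.87, and r was 0.81 without the 2 arrays farthest from the median. This pair was picked as the highest of 21 pairs among 7 members. The next was Erbb2 with Erbb3 at r = 0.65, or 0.33 without the 2 arrays farthest from the Erbb2 median. All points of a pair share the same arrays. The r with the fibroblast marker mean was 0.62 for Hbegf and 0.71 for Tgfa, and with the basal marker mean it was 0.62 and 0.52. Within the 6 Hunk WT tumours the r with the array background was -0.86 for Hbegf and -0.91 for Tgfa. Within the 6 Hunk KO tumours it was 0.03 and -0.05, and Tgfa was below background in Hunk KO tumours 1, 2 and 3. The part of the fibroblast markers, the basal markers and the background in the likeness of these ligands was not tested.

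**Figure D2:**
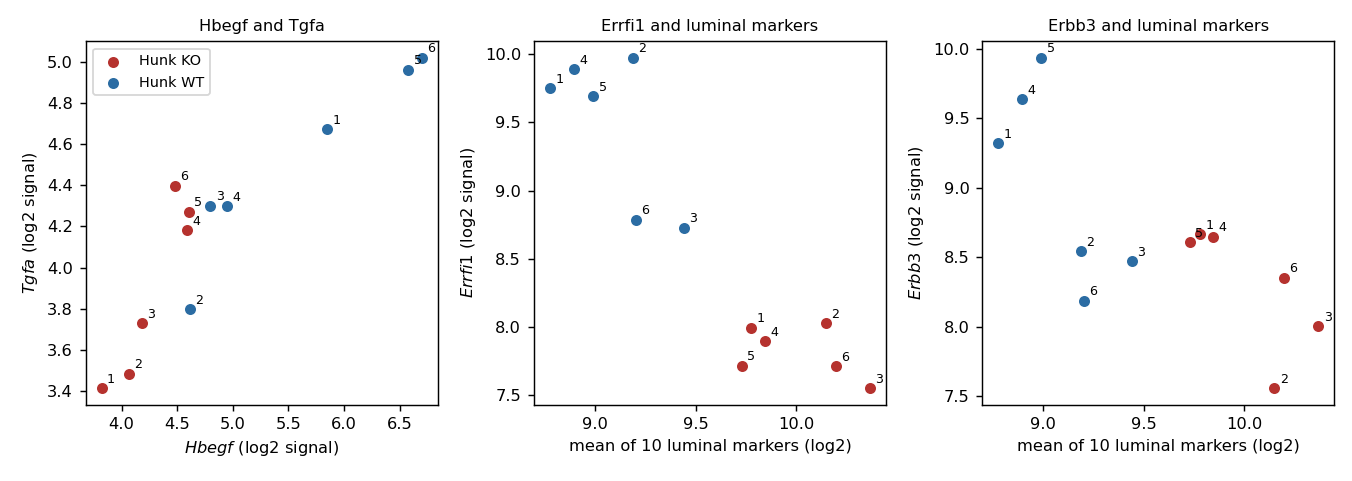
Each point is 1 numbered tumour, Hunk KO in red and Hunk WT in blue, with log2 signals on every axis. The left panel plots Tgfa against Hbegf, which climb together in each genotype, the middle panel Errfi1 (1416129_at) and the right panel Erbb3 (1434606_at) against the mean of the 10 luminal markers, on which the genotypes do not overlap.

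Btc, which binds Egfr and Erbb4, had 2 tested probe sets, and neither passed. The first, 1421161_at, lay between 4.37 and 4.70 with a median of 4.50 in Hunk KO and between 4.24 and 4.55 with a median of 4.40 in Hunk WT (log2 change 0.13, 95% interval -0.04 to 0.29, limma adjusted p = 0.359). The second, 1435541_at, had a change of 0.03 (95% interval -0.17 to 0.23, limma adjusted p = 0.87). Deviations of that probe set followed the array's own background with r = 0.90 over 12 arrays, and its highest values in each genotype, 4.77 in Hunk KO tumour 3 and 4.81 in Hunk WT tumour 2, were on the arrays of highest background. Ereg, whose product also binds Egfr and Erbb4, lay between 3.05 and 3.65 with a median of 3.12 in Hunk KO and between 3.00 and 3.17 with a median of 3.06 in Hunk WT, at or below background throughout.

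None of the receptors passed the test. Erbb3, the partner receptor that couples strongly to PI3K, was read by 1434606_at at 7.56 to 8.67 with a median of 8.48 in Hunk KO tumours, and at 8.19 to 9.93 with a median of 8.93 in Hunk WT tumours. Hunk WT tumours 1, 4 and 5, at 9.32 to 9.93, were above every Hunk KO tumour, and Hunk WT tumours 2, 3 and 6 lay inside the Hunk KO range. The log2 change was -0.71 (SE 0.32, 95% interval -1.40 to -0.02, limma adjusted p = 0.249), and it was 0.86 (limma adjusted p = 0.729) with the luminal marker mean as a covariate. Erbb3 ran opposite to that mean within each genotype, with r = -0.73 in the 6 Hunk KO and r = -0.74 in the 6 Hunk WT tumours. This was not particular to the luminal markers. With the mean of the alveolar markers the r of Erbb3 was -0.77 in Hunk KO and -0.81 in Hunk WT. The other Erbb3 probe set, 1452482_at, had values of 3.57 to 3.97 in Hunk KO and 3.60 to 3.95 in Hunk WT, close to background.

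Erbb2, the receptor without a known ligand, was nearly level across the arrays. Its only probe set, 1424919_at, had a median of 4.69 in Hunk KO, with a range of 4.35 to 4.76, and of 4.71 in Hunk WT, with a range of 4.66 to 5.59. Hunk KO tumour 2 was low and Hunk WT tumour 5 high, and the other 10 tumours lay between 4.66 and 4.76. The log2 change was -0.20 (SE 0.15, 95% interval -0.54 to 0.13, limma adjusted p = 0.473). Most of it came from Hunk WT tumour 5, without which the Erbb2 change was -0.05 (limma adjusted p = 0.75), and it was -0.03 (limma adjusted p = 0.995) with the luminal marker mean as a covariate.

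Egfr, the receptor shared by all of the ligands named here, was read above background on all arrays by 1460420_a_at. It lay between 7.22 and 7.73 with a median of 7.48 in Hunk KO tumours, and between 7.10 and 7.27 with a median of 7.16 in Hunk WT tumours. Hunk KO tumours 3, 4, 5 and 6 were above every Hunk WT tumour, and Hunk KO tumours 1 and 2 lay inside the Hunk WT range. The log2 change was 0.27 (SE 0.11, 95% interval 0.03 to 0.52, limma adjusted p = 0.206), with 0.08 (limma adjusted p = 0.896) under the beta-actin covariate and 0.04 (limma adjusted p = 0.992) under the luminal one. Deviations of this Egfr probe set had r = 0.83 with the array medians over all probe sets, and Hunk KO tumour 3 was the highest in each. The other 4 Egfr probe sets were above background on at most 1 of 12 arrays, which was Hunk WT tumour 4 at 3.87 for 1424932_at.

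**Figure D3:**
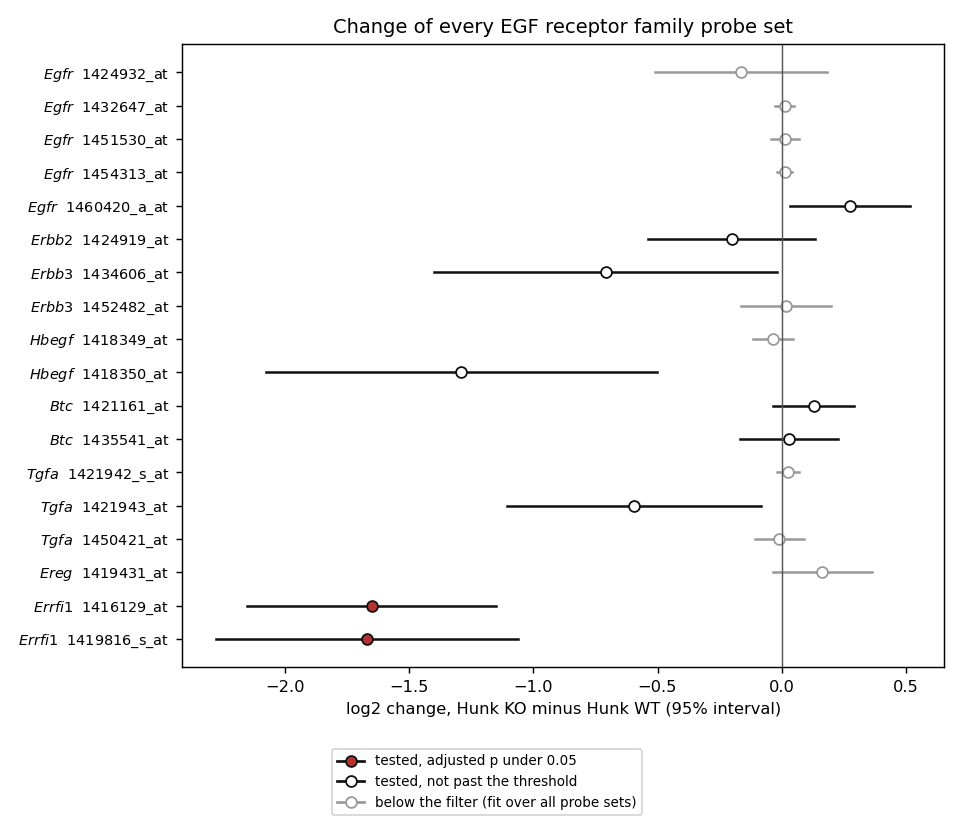
Log2 change, Hunk KO minus Hunk WT, of all 18 member probe sets with 95% intervals before any adjustment for multiple tests, from limma over the tested probe sets (black) or over all probe sets (grey). Filled points mark the 2 Errfi1 probe sets, the members past the threshold. The intervals of Hbegf 1418350_at, Tgfa 1421943_at, Erbb3 1434606_at and Egfr 1460420_a_at also leave out 0. Over all 11313 tested probe sets, 2156 had an unadjusted limma p under 0.05.

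Over all 18 member probe sets the median log2 change was 0.00, with 9 positive and 9 negative, beside a median of 0.04 over the 22626 probe sets that are not controls. Over the 9 tested it was -0.59, with 3 positive and 6 negative, beside a median of 0.01 over the 11313 tested. Those 9 hold 2 probe sets each of Errfi1 and Btc. The 9 below the filter had changes between -0.16 and 0.16, and none passed in the fit over all 22626, in which 0.672% were called. In that fit 0 of these 9 had an unadjusted limma p under 0.05, beside 6 of all 18 member probe sets and 2546 of the 22626. In the fit over the tested probe sets 6 of the 9 tested members had one, beside 2156 of the 11313. Errfi1 had adjusted p-values of 0.00698 and 0.0208 in the limma fit over all probe sets.

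The genes whose tumour-to-tumour pattern was most like each member's were looked up among the other tested genes, using Pearson's r over the 12 arrays after each genotype's mean was subtracted. For Errfi1 these were Ap3b1, a subunit of a vesicle adaptor complex (r = 0.89), and Npnt, a matrix ligand of integrins (r = 0.80). Npnt itself fell in Hunk KO, by 3.76 on the log2 scale (limma adjusted p = 0.00192), while Ap3b1 had a change of -0.20 (limma adjusted p = 0.305). Erbb3 was most like Prpsap2 (r = 0.87) and to the receptor-binding adaptor Grb7 (r = 0.86).

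Hbegf was most like Copg1 (r = 0.95), which makes a subunit of a vesicle coat, and Smyd5 (r = 0.93). Tgfa was most like Repin1 (r = 0.93) and to the Golgi network protein Tgoln1 (r = 0.92). For Erbb2 they were Lamc1 (r = 0.98), a laminin chain, and Sox12 (r = 0.93). For Egfr they were Cd4 (r = 0.92) and Clcn3 (r = 0.91), and for Btc (1435541_at) Lats1 (r = 0.995) and Ncf1 (r = 0.989). With 12 arrays and 6824 genes searched, such values describe these arrays only. Egfr and Btc also follow the array level and background given above, and in Hunk WT tumours Hbegf and Tgfa ran opposite to the background. Erbb2 varied mainly in Hunk KO tumour 2 and Hunk WT tumour 5, so its r values rest largely on those arrays.

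The other genes of the pathway were taken in 6 lists of 83 genes, of which 73 had a probe set and 54 were tested, each by its probe set of highest mean. Over all 6825 genes tested that way, 1.45% were called lower and 1.35% higher in Hunk KO. Of the other receptors and ligands of the family, only Erbb4, the receptor of neuregulins, was tested (1 of 5 with a probe set), with a log2 change of 0.23 (limma adjusted p = 0.331). The ligands Egf, Epgn, Nrg3 and Nrg4 were below background on all 12 arrays.

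Of 7 tested proteases and partners that release or hold the ligands, 1 rose, 0 fell and 6 did not pass, with a median log2 change of 0.05, beside 0.01 over all genes tested. The one that rose was Adam9, a metalloprotease that can cut the HB-EGF precursor. Adam9 lay between 7.73 and 8.43 with a median of 8.22 in Hunk KO, and between 6.92 and 7.74 with a median of 7.27 in Hunk WT, so that the groups only just overlapped. It was 1.81-fold higher in Hunk KO (log2 change 0.85, SE 0.18, limma adjusted p = 0.0315). The main ligand sheddase Adam17 had a change of 0.00 (limma adjusted p = 0.981), Adam10 of 0.12 (limma adjusted p = 0.689), and the tetraspanin Cd9, the member of highest mean, of -0.39 (limma adjusted p = 0.461).

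Of 15 tested adaptors and effectors of the receptors, 0 rose and 0 fell, with a median of -0.24. Their changes reached from -1.43 for Eps8, an actin regulator bound by Egfr, to 1.78 for Pik3r1, the regulatory subunit of PI3K, with limma adjusted p-values of 0.223 and 0.114. Stat3, the transcription factor of highest mean in that list, had a change of -0.61 (limma adjusted p = 0.183). Of 13 tested inhibitors and trafficking genes other than Errfi1, 0 rose and 0 fell, with a median of 0.03. They included the ubiquitin ligases Cbl (-0.15) and Cblc (0.55), the membrane inhibitor Lrig1 (0.03) and the recycling GTPase Rab11a (0.34, the highest mean).

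**Figure D4:**
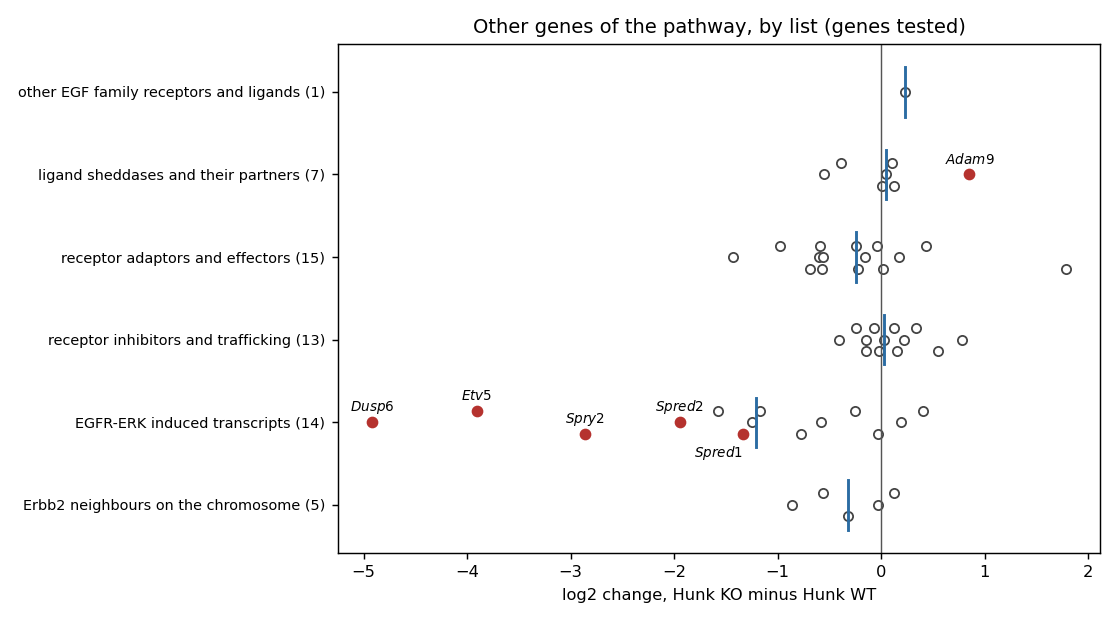
Log2 change, Hunk KO minus Hunk WT, of the tested genes of 6 pathway lists, 1 point per gene, with the number tested in brackets and the list median as a blue line. Red points are past the threshold; they are Adam9 above 0, and Dusp6, Etv5, Spry2, Spred2 and Spred1 below 0.

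Transcripts that receptor and ERK signalling is known to induce held most of the pathway's calls. Of 14 tested, 5 fell, 0 rose and 9 did not pass, with a median of -1.21. With the luminal marker mean as a covariate, 0 of the pathway genes passed, these 5 and Adam9 included. The 5 were the ERK phosphatase Dusp6, the signalling inhibitors Spry2, Spred1 and Spred2 and the ETS factor Etv5, each with Hunk KO below every Hunk WT tumour. The list was put together knowing that these genes fall in these samples, so its count is no independent evidence of a direction. Dusp6 was 30.2-fold lower, with 1 of 6 Hunk KO tumours at background, and Etv5, at background in 6 of 6 Hunk KO tumours, at least 8.84-fold lower, the dim group's values being raised to the background.

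The deviations of Errfi1 from its group means had r = 0.40 with Dusp6, 0.38 with Spry2, 0.24 with Etv5, 0.15 with Spred2 and 0.12 with Spred1 over the 12 arrays, and without the 2 arrays farthest from the Errfi1 median these lay between -0.21 and 0.08. The r with Spry2 was -0.37 within the 6 Hunk KO and 0.77 within the 6 Hunk WT tumours, and that difference was not tested. The immediate early genes Egr1 (-0.58, limma adjusted p = 0.541) and Fos (0.40, limma adjusted p = 0.449) did not pass, nor did Ier3 (-1.25, limma adjusted p = 0.0592), Epha2 (-1.17, limma adjusted p = 0.0728) and Phlda1 (-1.58, limma adjusted p = 0.125). Myc, the transgene's gene and the list's highest mean, had a change of -0.25 (limma adjusted p = 0.486).

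Of 5 tested genes that lie next to Erbb2 on the chromosome, 0 rose and 0 fell, with a median of -0.32. They included Grb7 (-0.56, limma adjusted p = 0.495), Stard3 (-0.86, limma adjusted p = 0.207) and Mien1 (-0.03, limma adjusted p = 0.959), the last with the highest mean.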

How the data were processed

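The 12 arrays fall into 6 Hunk KO and 6 Hunk WT tumours by their titles. The deposited values are log2 signals, made by the authors with GCRMA per the submitters' processing notes; its version is not given in the sources used here. They were used as deposited, from -0.07 to 14.72, with 0 columns left unused, and GCRMA compresses differences near background. Of 22690 probe sets, 20393 had 1 gene symbol, 691 several and 1606 none listed; 20364 of those with 1 symbol were found in a RefSeq gene table of GRCm38.p6, which gave the symbol used. The 64 control probe sets were left out. Probe sets whose mean exceeded the median of 3.98 were tested with limma 3.58.1 in R 4.3.3 (eBayes with trend, group only, Benjamini-Hochberg over all tested); member probe sets below it come from the same fit over all 22626. A gene in a list is its probe set of highest mean. Named were all members, Hunk, up to 5 called genes and the highest mean of each pathway list, the 2 genes most like each member, and the highest mean of each marker list; other genes were named after their values were seen. Members and lists were chosen with earlier results of these data known. In simulated data of this comparison with 11313 tested probe sets, 70% of those changed by 1 and 94% of those changed by 2 on the log2 scale were recovered, with 4 false calls of 168. The simulated noise was normal, independent between probe sets and arrays, and of the same SD in both genotypes. The real arrays need not be so, and these figures are not their error rate. Alternatives were other filters, moderation, normalization, array weights, a replicate block, covariates, a floor, averaging Hunk KO tumours 4 and 5, and leaving out each array. Figures were drawn with matplotlib 3.10.9.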

Additional observations from a re-analysis of the deposited data

Results flagged for a closer look

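Of 36 groups of 6 arrays (18 probe sets in each genotype), 6 held a single array far from the others by Dixon's criterion, and chance alone flags about 1 in 20. Erbb2 was at 4.35 in Hunk KO tumour 2, below the other 5 Hunk KO tumours, and at 5.59 in Hunk WT tumour 5, above the other 5 Hunk WT tumours. Btc 1435541_at was at 4.77 in Hunk KO tumour 3 and at 4.81 in Hunk WT tumour 2, each the highest of its genotype and on the array of highest background there. At or below background, Hbegf 1418349_at was at 1.80 in Hunk WT tumour 5 and Tgfa 1450421_at at 3.35 in Hunk KO tumour 4.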

How the results depend on the processing

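The 2 Errfi1 calls stood in all alternatives tried, except the beta-actin covariate and the luminal covariate, each of which left 0 member probe sets past the threshold. Of 54 pathway genes 6 passed; the number was 2 with the filter at the 75th percentile, where fewer genes were tested, and 0 with the luminal covariate. Over the whole array the 278 calls became 152 with no filter, 602 with array weights, 170 with Hunk KO tumours 4 and 5 averaged, 104 with the beta-actin covariate (71 higher and 33 lower), 2 with the luminal covariate and 666 at an adjusted p under 0.1, and lay between 134 (without Hunk WT tumour 4) and 315 (without Hunk KO tumour 1) when 1 array was left out; they were 168, 161 and 167 without Hunk KO tumours 4, 5 or 6 and 184 without Hunk WT tumour 6. Median centring gave 85 higher and 152 lower. With the replicate number as a block 112 passed, among them both Errfi1 probe sets; same-numbered arrays' deviations had r from -0.02 to 0.14, 3 of 6 Hunk KO arrays correlated best with their own number, and the numbers are not stated to pair the arrays. Erbb3 turned to 0.86 with the luminal covariate. The small changes of Btc turned negative: 1421161_at to -0.023 with the luminal covariate, and 1435541_at to -0.0097 with quantile normalization, -0.027 with median centring, -0.10 with the beta-actin covariate, -0.18 with the luminal covariate, and between -0.019 (without Hunk KO tumour 3) and 0.093 (without Hunk WT tumour 2) when 1 array was left out, with -0.010 without Hunk WT tumour 5. The cause of these differences was not tested. The filter at the 75th percentile gave no value for Erbb2, Hbegf, Btc and Tgfa. The 9 member probe sets below the filter lie near background, where a change would be compressed.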
